A study of Mus musculus with 12 samples.

Results

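In 6 H3K27ac ChIP-seq peak lists of cultured mouse adipocyte progenitors, 5573 regions carried strong acetylation peaks in nearly every library and lay at the end of a protein-coding gene. They were chosen from the peak lists themselves. The 30000 peaks of highest score on chromosomes 1 to 19 and X were kept in each library, overlapping peaks were merged, and a merged region was kept if it held peaks of at least 5 of the 6 libraries and lay within 1 kb of either end of a protein-coding gene. Of 127635 merged regions 5573 met this rule, 3619 of them with peaks of all 6 libraries and 1954 with peaks of 5. Being shared, being strong and lying at a gene end are therefore how the regions were found and are not results.

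The libraries were made from progenitors of subcutaneous fat of Azin2-/- mice (replicates 1, 2 and 8) and wild-type mice (replicates 1, 2 and 2b). Azin2 encodes antizyme inhibitor 2, which binds antizyme and so spares ornithine decarboxylase, the enzyme that starts polyamine synthesis. All 6 cultures had the same history, which was 1 week in growth medium, 2 days with insulin, IBMX, dexamethasone and rosiglitazone, and 5 days with insulin, so that both genotypes had been through adipogenic induction. The nature of the Azin2-/- allele, the age and number of the animals behind each library, and whether wild-type replicates 2 and 2b share an animal are not stated in the labels. All p-values therefore measure the spread between these libraries, which may be technical.

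Acetylation of lysine 27 on histone H3 is laid down by the acetyltransferases p300 and CBP at active promoters and enhancers and removed by histone deacetylases. At an active promoter the acetylated nucleosomes flank the start of transcription, and the nucleosome just inside the gene usually carries the strongest mark. Promoters of widely expressed genes are often rich in CpG and are acetylated in most cell types, whereas enhancers are acetylated in fewer.

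The sequences of 6 promoters from the set are given first, because they span the range seen below. Sipa1l1 had the smallest mean rank of all shared gene-end regions, Xbp1 is a strong region whose promoter is poor in CpG, Dusp1 is the strongest of the immediate early genes and Cebpb is an adipogenic factor. Zfp710 is the gene whose region passed the genotype test, and Ptprs leads the regions with more cover in Azin2-/- that did not pass it. Each sequence runs 5′ to 3′ on the gene's own strand from 250 bases before to 50 bases after the annotated start, and is taken from RefSeq on GRCm38.p6. Capitals mark exact matches, on either strand, to the GC box GGGCGG, the CCAAT box, the cyclic AMP element TGACGTCA, the E-box CACGTG and the TATA box TATAAA. The Sipa1l1 promoter lies at chr12:82169766-82170065 on the forward strand, that of Xbp1 at chr11:5520391-5520690 on the forward strand and that of Dusp1 at chr17:26508423-26508722 on the reverse strand. The Cebpb promoter lies at chr2:167688665-167688964 on the forward strand, that of Zfp710 at chr7:80024564-80024863 on the forward strand and that of Ptprs at chr17:56476431-56476730 on the reverse strand.
Sipa1l1: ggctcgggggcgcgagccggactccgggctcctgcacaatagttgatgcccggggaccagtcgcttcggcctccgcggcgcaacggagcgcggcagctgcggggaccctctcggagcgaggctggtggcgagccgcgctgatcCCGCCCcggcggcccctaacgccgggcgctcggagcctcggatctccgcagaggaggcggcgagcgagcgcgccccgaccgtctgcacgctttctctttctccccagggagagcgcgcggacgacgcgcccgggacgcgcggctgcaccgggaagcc
Xbp1: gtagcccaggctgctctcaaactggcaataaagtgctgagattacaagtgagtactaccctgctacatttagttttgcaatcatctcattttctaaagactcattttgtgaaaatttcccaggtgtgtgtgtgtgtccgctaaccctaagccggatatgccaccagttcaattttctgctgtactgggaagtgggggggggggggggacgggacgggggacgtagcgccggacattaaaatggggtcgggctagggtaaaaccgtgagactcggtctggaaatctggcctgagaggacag
Dusp1: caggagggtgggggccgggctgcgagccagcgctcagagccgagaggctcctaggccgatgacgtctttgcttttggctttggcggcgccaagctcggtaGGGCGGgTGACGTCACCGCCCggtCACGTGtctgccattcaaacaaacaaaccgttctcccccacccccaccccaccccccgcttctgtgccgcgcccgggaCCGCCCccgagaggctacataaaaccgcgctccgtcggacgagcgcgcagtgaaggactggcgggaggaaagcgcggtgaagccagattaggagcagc
Cebpb: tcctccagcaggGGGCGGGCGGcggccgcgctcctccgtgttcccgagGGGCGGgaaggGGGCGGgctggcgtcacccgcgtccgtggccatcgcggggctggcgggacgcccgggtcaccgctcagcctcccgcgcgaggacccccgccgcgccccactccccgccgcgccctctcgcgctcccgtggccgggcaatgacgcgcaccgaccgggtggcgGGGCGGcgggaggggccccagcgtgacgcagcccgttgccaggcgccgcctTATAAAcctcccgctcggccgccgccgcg
Zfp710: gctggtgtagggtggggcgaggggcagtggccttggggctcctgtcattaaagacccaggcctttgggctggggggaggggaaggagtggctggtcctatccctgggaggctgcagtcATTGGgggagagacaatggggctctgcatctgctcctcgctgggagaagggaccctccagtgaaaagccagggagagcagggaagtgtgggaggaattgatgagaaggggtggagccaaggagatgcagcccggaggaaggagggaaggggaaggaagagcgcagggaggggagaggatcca
Ptprs: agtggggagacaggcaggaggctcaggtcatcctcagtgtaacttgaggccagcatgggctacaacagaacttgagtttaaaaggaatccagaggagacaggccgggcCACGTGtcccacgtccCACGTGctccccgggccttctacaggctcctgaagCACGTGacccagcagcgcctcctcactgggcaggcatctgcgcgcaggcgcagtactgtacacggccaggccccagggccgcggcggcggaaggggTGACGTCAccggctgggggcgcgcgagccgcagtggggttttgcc

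The Cebpb promoter holds 50 CpG and 5 GC boxes, and that of Sipa1l1 48 CpG and 1 GC box. The Dusp1 promoter has 31 CpG with 3 GC boxes, 1 cyclic AMP element and 1 E-box. With 21 CpG, the Ptprs promoter has 1 cyclic AMP element and 3 E-boxes. At the other end, the Xbp1 promoter has 10 CpG and none of the motifs searched, and the Zfp710 promoter has 4 CpG and 1 CCAAT box. A match of letters is a description and does not show that a factor binds there.

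The deposited lists were long and shallow, between 742335 and 1217494 peaks per library. Read totals are not given, so the depth is unknown. The number of fragments stacked at the summit can be worked out from the deposited fold and p on the assumption that 1 was added to both sides of the fold. At the shared gene-end regions its median was 18, 9 and 25 fragments in Azin2-/- replicates 1, 2 and 8, and 5, 10 and 19 in wild-type replicates 1, 2 and 2b. Wild-type replicate 1 stood apart as the thinnest library, and Azin2-/- replicate 1 had by far the most peaks at a deposited q of 0.05 or less (54847, against 13843 to 21544 in the others). In all libraries but Azin2-/- replicate 1 some of the 30000 peaks exceed that q. In all 6 libraries the last of the 30000 peaks were drawn from a larger group with the same score, which ran from 1650 such peaks in Azin2-/- replicate 8, 1342 of them kept, to 39204 in wild-type replicate 1, 4536 of them kept.

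Regions were more often at a gene end the more libraries held them. The share within 1 kb of a gene end was 4.97% among regions of 1 library, 18.6% for 2, 43.3% for 3, 62.7% for 4, 74.7% for 5 and 84.5% for all 6. Above the limit of 5 libraries lay 6901 regions, of which 1328 were away from gene ends. Just below it lay 1376 gene-end regions of 4 libraries, whose strongest peaks were weaker. The median of the mean rank in the lists, where 1 is the strongest peak, was 3902 for regions of 6 libraries, 6145 for regions of 5 and 8249 for gene-end regions of 4. At the distance limit, 36 regions lay in the last 100 bp within 1 kb of the gene end, and 27 regions of at least 5 libraries lay in the 100 bp beyond it and were left out.

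**Figure D1:**
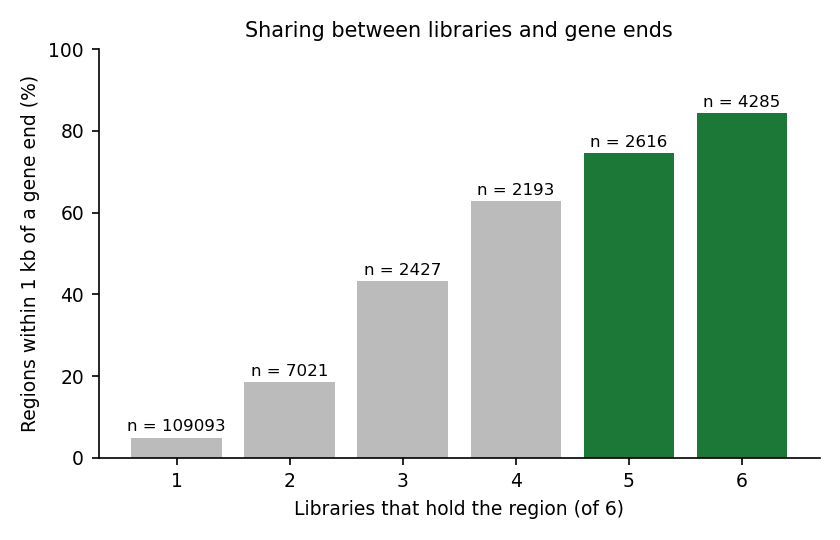
Share of merged regions that lie within 1 kb of a protein-coding gene end (y axis, %) by the number of libraries that hold the region (x axis), with the number of regions above each bar; green bars hold the regions described here. The share is 4.97% for regions of 1 library and 84.5% for regions of all 6.

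The shared regions marked a minority of genes and nearly always the 5′ end. Of 21631 protein-coding genes 6336 (29.3%) had such a region within 1 kb of an end. For the 17274 genes whose strand the promoter table gives, 4813 (27.9%) had a region at the 5′ end and 555 (3.21%) at the 3′ end. Genes without a row there include all of chromosome 18. Their starts are not seen in the counts by gene end, summit, CpG or motif. Where no annotated start lay within 3 kb of the 3′ end, 147 of 13018 genes (1.13%) had a region there. The rule used both ends alike, so this difference between the ends is not built into it.

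Among the 4344 regions with a known strand for every gene they touch, 4243 (97.7%) lay at a 5′ end. Starts on both strands, as in a divergent gene pair, were found at 428 regions (9.85%), such as Zbtb1 with Zbtb25 and Uqcrh with Lrrc41. The remaining 101 lay at 3′ ends only, and 84 of these had no annotated start of another gene within 1 kb. Plin1, which coats lipid droplets, was among these 84, with its shared region at chr7:79720207-79722123 over the 3′ end. The regions of Dmrta2, a developmental transcription factor, and Foxa2, a forkhead factor of endoderm, also lay at 3′ ends only. Regions at 3′ ends only were weaker, with a median mean rank of 6453, against 4604 for regions at starts of a single strand and 4198 for those at starts of both strands.

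Individual regions were about the size of a promoter. Their median length was 1925 bp (quartiles 1563 and 2407 bp, range 528 to 7500 bp) and their total 11.4 Mb. The gene end itself lay inside 5095 of them (91.4%), 4673 touched 1 gene, 867 touched 2 and 33 touched 3 or more.

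Summits lay just inside the gene. The strongest summit was a median of 182, 184 and 147 bp downstream of the nearest annotated start in Azin2-/- replicates 1, 2 and 8, and 184, 181 and 168 bp downstream in wild-type replicates 1, 2 and 2b. These are regions at starts of a single strand, of which each library held 3154 to 3815. Summits more than 2 kb from a start were left out, so that 3062 to 3704 per library entered the medians and shares. The share of summits downstream of the start was 78.4% in Azin2-/- replicate 8, the lowest, and 83.3% in wild-type replicate 2b, the highest. Azin2-/- replicate 8 had the summits closest to the start, and the medians of the other 5 libraries ran from 168 to 184 bp.

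**Figure D2:**
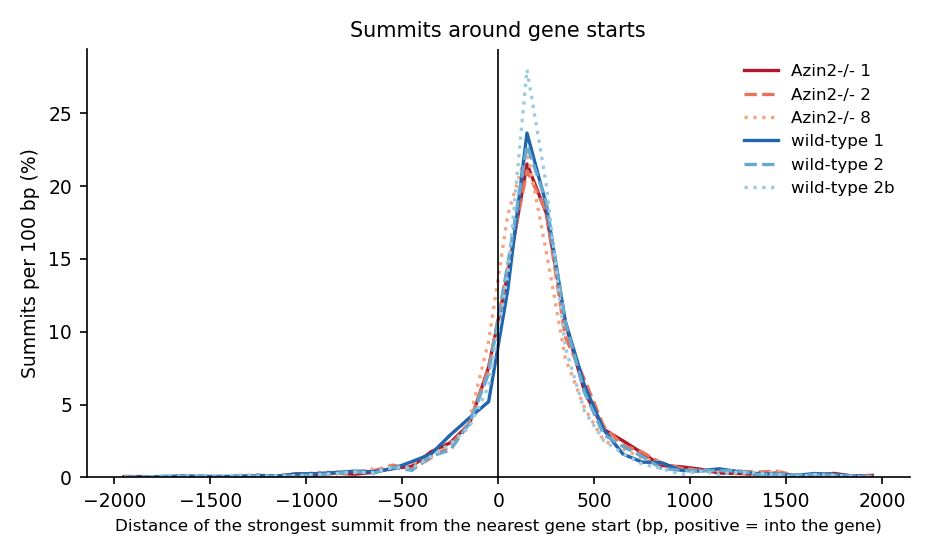
Distance of the strongest summit from the nearest annotated gene start (x axis, bp, positive into the gene) as the share of summits per 100 bp (y axis, %), 1 line per library, Azin2-/- in red and wild-type in blue. Shown are shared gene-end regions at starts of a single strand with a summit within 2 kb of a start. All 6 lines peak in the bin centred 150 bp into the gene.

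The X chromosome had few shared gene-end regions. Of its 966 protein-coding genes 68 (7.04%) had one, whereas the autosomes ranged from 20.2% on chromosome 7 to 37.5% on chromosome 8. Peaks on X were scarce in the lists as a whole, at 0.993% to 2.55% of the 30000 peaks, while X holds 4.47% of the genes.

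Each list began with these regions. Of the 1000 strongest peaks, 74.8%, 72.6% and 82.1% lay in shared gene-end regions in Azin2-/- replicates 1, 2 and 8, and 79.1%, 83.4% and 83.1% in wild-type replicates 1, 2 and 2b. Over all 30000 peaks the share was 16.3% (wild-type replicate 1) to 19.1% (Azin2-/- replicate 1). Since the rule asked for peaks in at least 5 lists of limited length, strong peaks had the better chance of being kept, and the slope along the list is a description only.

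**Figure D3:**
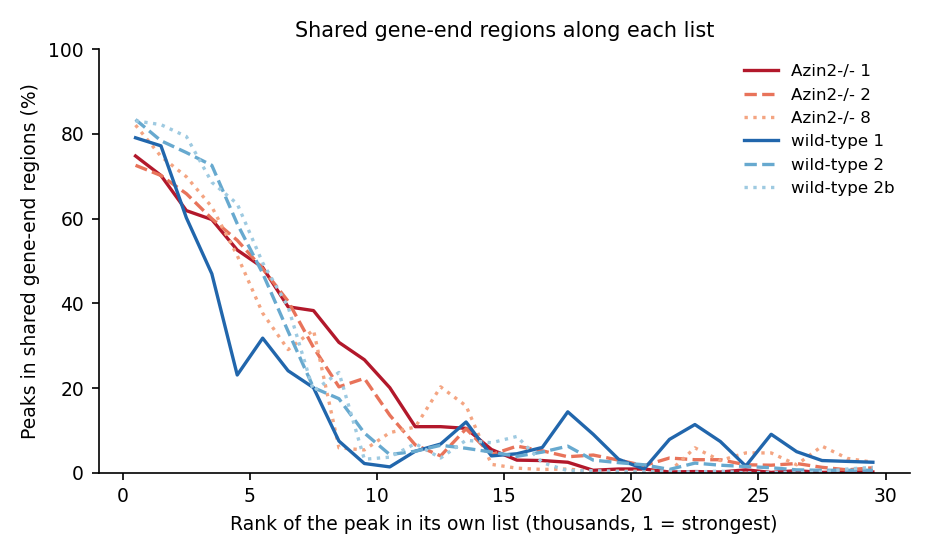
Share of peaks that lie in shared gene-end regions (y axis, %) in successive sets of 1000 peaks from the strongest to rank 30000 (x axis, in units of 1000 ranks), 1 line per library, Azin2-/- in red and wild-type in blue. The lines start between 72.6% and 83.4%; wild-type replicate 1 drops below 50% earliest, and tied scores are ordered by width.

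The strongest of all by mean rank was the region at Sipa1l1, a regulator of Rap GTPases, at chr12:82168565-82171399. Its best peak ranked 153, 701 and 97 in Azin2-/- replicates 1, 2 and 8, and 167, 20 and 394 in wild-type replicates 1, 2 and 2b. At Bcl6, a transcriptional repressor, the region at chr16:23986200-23990174 ranked 1356, 1347 and 5 in Azin2-/-, and 4, 2 and 3 in wild-type. Hnrnpa0, which binds RNA, had ranks of 316, 1684 and 1177 in Azin2-/-, and 6, 10 and 12 in wild-type. In both, the 3 wild-type ranks were smaller than the 3 Azin2-/- ranks. Ranks of lists that differ in depth show no change, and the cover of these regions is given with the genotype comparison.

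Also among the 12 strongest were regions at Pink1, a kinase of mitochondrial quality control, Itgb1, the integrin beta 1 subunit, Ranbp2, a nuclear pore protein, Raly, an RNA-binding protein, and Xbp1, a transcription factor of the unfolded protein response. Xbp1 ranked 31, 452 and 1053 in Azin2-/- replicates 1, 2 and 8, and 368, 1139 and 229 in wild-type replicates 1, 2 and 2b, without separation of the genotypes. The remaining 4 lay at Zfp24, at Zbtb1 with Zbtb25, at Zfp219 with Tmem253 and at 1810013L24Rik.

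By mean covered length the widest 6 regions lay at Mn1, a transcriptional coregulator, at Brd2 with H2-DMa, at Smad7, at Hic1 with Smg6, at Zmiz1 and at Nfix with Lyl1. Brd2 is a bromodomain reader of acetylated histones, Smad7 inhibits TGF-beta signalling, Hic1 is a transcriptional repressor, Zmiz1 is a coregulator of the PIAS family and Nfix is a nuclear factor I protein. H2-DMa helps to load peptides onto MHC class II molecules, Smg6 is a nuclease of nonsense-mediated mRNA decay and Lyl1 is a basic helix-loop-helix factor. The Mn1 region was the longest, at chr5:111415091-111422590. Over the regions, length went little with rank (Spearman's rho -0.10, n = 5573 regions of the same 6 libraries).

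Promoters in the set were rich in CpG. The promoter table gave 5237 starts inside shared gene-end regions, with a median GC content of 66.7%, 27 CpG per 300 bases, and an observed over expected CpG ratio above 0.6 in 88.3% of starts. Over all 21045 starts in the table the same values were 56.7%, 13 CpG and 48.1%. The 4589 starts inside regions of 1 to 4 libraries lay between, with 61.7%, 20 CpG and 69.9%, and the 10602 starts in no region had 49.7%, 4 CpG and 16.6%. ChIP-seq libraries can favour GC-rich fragments, and the part of base composition in how the lists were ranked was not tested.

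GC boxes were frequent in these promoters and TATA boxes infrequent. The GC box GGGCGG, the letters bound by Sp1 family factors, was found on either strand in 77.8% of starts in shared gene-end regions and in 46.7% of all starts. The ETS core CCGGAAG was found in 17.0% and 11.7%, the E-box CACGTG in 10.9% and 7.91%, and the YY1 motif AAGATGGC in 4.45% and 3.07%. For the cyclic AMP element TGACGTCA the shares were 3.11% and 2.26%. Lower than among all starts were the CCAAT box with 32.7% and 38.5%, the TATA box TATAAA with 5.00% and 12.7%, and the AP-1 motif TGACTCA with 2.44% and 4.69%. The C/EBP motif TTGCGCAA was rare in both, at 0.191% and 0.223%. No motif contains another, and all are exact letters in a window of 300 bases, so a start without a match may still bind the factor.

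Which genes carried a shared region differed widely between functional groups. Shares are read against the 29.3% of all protein-coding genes that had one, and the lists were chosen with earlier results of these data known. The TGF-beta and Wnt pathway list had the largest share of the 26. In the TGF-beta and Wnt pathway list 31 of 37 genes (83.8%) had a region, led by Tcf7l2, the nuclear partner of beta-catenin, Gsk3b, the kinase that marks beta-catenin for breakdown, Smad7 and Smad3, which carries the TGF-beta signal. Without one were Axin1, Axin2, Tcf7, Tgfb2, Tgfb3 and Tgif1. The immediate early and AP-1 list had 17 of 24 (70.8%), led by the phosphatase Dusp1 and the nuclear receptor Nr4a3, but neither Fos nor Myc. The clock list had 11 of 18 (61.1%), with Nr1d2, Bhlhe40, Bhlhe41 and Per2 foremost, and the glucocorticoid list 10 of 18 (55.6%), with Dusp1, Errfi1, Cebpd and Klf9.

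Transcription factors of adipogenesis were well represented and the genes of the mature adipocyte less so. Of 26 such factors 17 (65.4%) had a shared region, among them Nr1h3, Klf5, Cebpa and Zfp423 as the strongest. Pparg, the central adipogenic receptor, was not among them, nor were Klf15, Ebf2, Srebf1 and Stat5a. The rule sees only the outer ends of a gene and asks for peaks of at least 5 libraries. A start inside the gene, or a region of fewer libraries, is therefore not counted, and absence does not show that a gene lacks acetylation. Of 34 adipocyte lipid and secretion genes 12 (35.3%) had a region, led by Fasn, the fatty acid synthase, Acsl1, an acyl-CoA synthetase, Gpd1 and Dgat2, which makes triglyceride. Adipoq, Fabp4, Lpl, Cd36 and Lep had none. The list of progenitor and fibroblast genes was below the share of all genes, with 10 of 44 (22.7%), led by Itgb1, Hoxc9, Twist2 and Loxl1. Pdgfra, Cd34, Dlk1, Ly6a, Dpp4 and Col1a1, which define progenitors and fibroblasts, had none. The labelled cell type could therefore not be read from its defining markers in these regions.

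Genes of general cell functions varied by complex. The translation initiation and elongation factors had 23 of 34 (67.6%), the splicing list 24 of 47 (51.1%), the cytoskeleton and focal adhesion list 22 of 45 (48.9%) and the replication-dependent histones 28 of 62 (45.2%). Histone genes stand in tight clusters and are near-identical copies, so a region there can touch several of them and reads may be placed on the wrong copy. The cytosolic ribosomal proteins had 31 of 78 (39.7%), the chaperones 11 of 29 (37.9%), and RNA polymerase II with its general factors 12 of 35 (34.3%). The nuclear respiratory chain subunits, with 19 of 61 (31.1%), and the proteasome, with 9 of 31 (29.0%), were close to the share of all genes. The list of histone acetylation and acetyl-CoA supply had 20 of 38 (52.6%), with Ncoa2, Ncor1, Brd2 and Hdac2 strongest.

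Polyamine genes with a shared region numbered 12 of 25 (48.0%). They were led by Eif5a, the translation factor that carries hypusine, Odc1, the ornithine decarboxylase itself, Srm, the spermidine synthase, and Smox, the spermine oxidase. Azin2 was also among them, and so were its relative Azin1 and the antizyme gene Oaz1. Sat1, Sms and Arg1 were not.

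Markers of other cell types were nearly absent. Of 18 macrophage markers 1 had a shared region (Spi1, while Ptprc, Csf1r and Adgre1 had none), as did 1 of 16 lymphocyte markers (Cd79a, in a region shared with Arhgef1) and 1 of 16 endothelial markers (Flt1, while Pecam1, Cdh5 and Kdr had none). There was 1 of 12 for mural and smooth muscle (Notch3), 2 of 14 for mesothelium and epithelium (Epcam and Cdh1), 2 of 16 for neurons and glia (Elavl3 and Rbfox3), 1 of 16 for skeletal muscle (Mylpf, shared with Tbc1d10b) and 1 of 16 for hepatocytes (Foxa2). Of these 10 regions 8 were missing from 1 library, which was Azin2-/- replicate 8 for Mylpf and wild-type replicate 1 for the other 7.

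**Figure D4:**
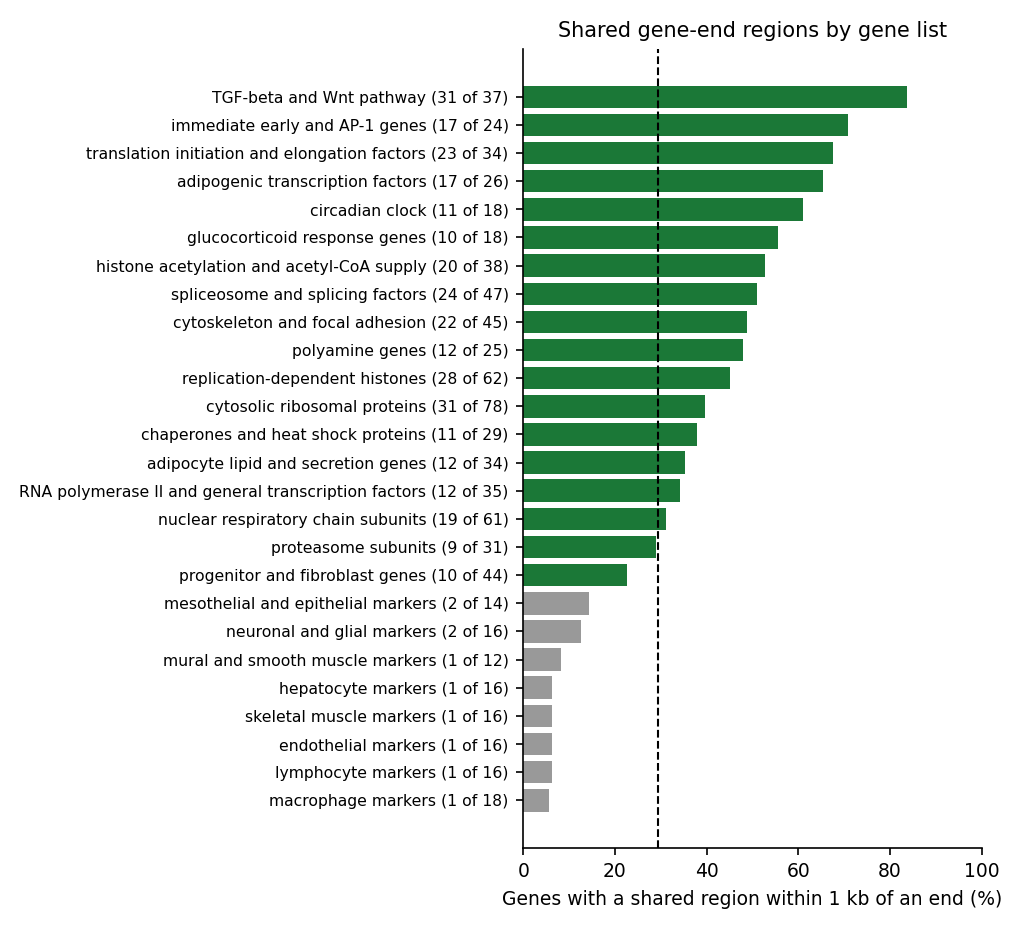
Share of the genes of each list that have a shared region within 1 kb of an end (x axis, %), with the number of genes in brackets; grey bars are marker lists of other cell types and the dashed line is the 29.3% of all protein-coding genes. The TGF-beta and Wnt list reaches 83.8%, while the marker lists lie between 5.56% and 14.3%.

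Where a region was missing from 1 library, that library was most often wild-type replicate 1. Of the 1954 regions of 5 libraries, 0, 189 and 431 were missing from Azin2-/- replicates 1, 2 and 8, and 945, 256 and 133 from wild-type replicates 1, 2 and 2b. Missing did not mean bare: between 92.6% and 97.9% of these regions overlapped a weaker deposited peak of the library in question. Because wild-type libraries, through replicate 1, were missing from more of the regions, the 1954 regions lean toward Azin2-/- by the way they were chosen.

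The cover of the shared gene-end regions overlapped between the genotypes. It was 8.41, 6.37 and 5.45 Mb in Azin2-/- replicates 1, 2 and 8, and 4.99, 6.25 and 8.15 Mb in wild-type replicates 1, 2 and 2b, with means of 6.75 ± 1.51 and 6.46 ± 1.59 Mb (SD, n = 3 each; two-sided exact permutation p = 0.7, adjusted 0.8 over 5 quantities computed per library, with the number of regions held among them). The median cover per region was 1391, 1075 and 978 bp in Azin2-/-, and 965, 1079 and 1369 bp in wild-type (exact permutation p = 0.8, adjusted 0.8). In both quantities the genotypes overlapped. The difference of the means in cover turned to -0.55 Mb without Azin2-/- replicate 1 and to -0.454 Mb without wild-type replicate 1. The difference in median cover was -111, -76 and -19 bp without Azin2-/- replicate 1, wild-type replicate 1 and wild-type replicate 2.

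As a share of the whole list, these regions took 28.1%, 25.7% and 25.7% of the cover in Azin2-/- replicates 1, 2 and 8, and 26.8%, 28.1% and 28.6% in wild-type replicates 1, 2 and 2b (exact permutation p = 0.3, adjusted 0.75). They held 19.1%, 18.9% and 18.3% of the peaks in Azin2-/-, and 16.3%, 18.5% and 18.6% in wild-type (exact permutation p = 0.3, adjusted 0.75). With 3 libraries against 3 the smallest p that this test allows is 0.1. Over the 3619 regions of all 6 libraries alone, the share of cover was 18.8%, 17.6% and 18.9% in Azin2-/-, and 21.7%, 19.6% and 19.9% in wild-type, which do not overlap (exact permutation p = 0.1, not adjusted). This smaller set depends most on wild-type replicate 1, which was the library most often missing from the others.

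Region by region, 1 of the 5573 passed the genotype test, the region at Zfp710, a zinc finger gene, which fell in Azin2-/-. The test was limma on the log2 of covered length, after scaling each library to equal total cover and adding 200 bp, with Benjamini-Hochberg adjustment over all 23909 merged regions whose mean cover reached 200 bp. All 5573 shared gene-end regions were among those tested, and no other region passed, so that the background was 0.00418% of the regions tested. The Zfp710 region, at chr7:80024554-80028182 over the 5′ end, had 1664, 1435 and 1504 bp of scaled cover in Azin2-/- replicates 1, 2 and 8, against 4046, 3669 and 2992 bp in wild-type replicates 1, 2 and 2b. Every Azin2-/- library was below every wild-type library, and the log2 difference was -1.11 (SE 0.15, limma adjusted p = 0.0497). The call is at the threshold: it was lost in 17 of 19 alternative settings, over which the log2 difference ran from -1.76 to -0.84 and the limma adjusted p from 2.94e-10 to 0.900. With wild-type replicates 2 and 2b averaged as 1 sample the limma adjusted p was 0.0510. Without wild-type replicate 1, limma called 6 shared gene-end regions higher, among them Ptprs, Dmrta2, Ebf3 and Icam4 with Icam5, and 6 lower, among them Zfp710, Tcf7l2 and Foxp1. Over all 30279 regions then tested, 15 were called higher and 7 lower. With no minimum on cover, 9 shared gene-end regions were called higher and 35 lower, against 16 and 48 of all 127635 regions tested.

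The next 7 regions named with less cover in Azin2-/- did not pass the test. They were those of smallest p among regions where all Azin2-/- libraries lay below all wild-type libraries. That separation is how they were chosen and is not a result, and regions with overlap were passed over. At Zmiz1 the scaled cover was 3218, 3504 and 3251 bp in Azin2-/- replicates 1, 2 and 8, against 4906, 4328 and 4381 bp in wild-type replicates 1, 2 and 2b (log2 difference -0.43, SE 0.07, limma adjusted p = 0.114). Smad7 had 3754, 3631 and 3177 bp in Azin2-/-, against 5272, 4684 and 4199 bp in wild-type (log2 difference -0.40, SE 0.08). Both are wide regions whose libraries within a genotype lay close together.

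Narrower regions of this kind differed by more and varied by more. At Zyx, which encodes the focal adhesion protein zyxin, scaled cover was 861, 1412 and 876 bp in Azin2-/- replicates 1, 2 and 8, against 2527, 2875 and 2637 bp in wild-type replicates 1, 2 and 2b (log2 difference -1.23, SE 0.25). Cebpb, an early adipogenic factor whose promoter is shown above, had 1521, 935 and 1359 bp in Azin2-/-, against 3672, 3216 and 2143 bp in wild-type (log2 difference -1.12, SE 0.24). Tcf7l2 had 2130, 1119 and 1809 bp in Azin2-/-, against 2854, 4260 and 3159 bp in wild-type (log2 difference -0.96, SE 0.20). For Nfib, a nuclear factor I gene, the log2 difference was -0.78 (SE 0.16), and for Foxp1, a forkhead factor, -1.04 (SE 0.22). The limma adjusted p was 0.60 for Smad7 and these 5.

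More cover in Azin2-/- was seen at regions that were weaker in the lists, and none of the 8 named passed the test (limma adjusted p = 0.60 for each). They were chosen in the same way, among regions with all Azin2-/- libraries above all wild-type libraries. At Ptprs, a receptor tyrosine phosphatase, scaled cover was 2946, 5267 and 1645 bp in Azin2-/- replicates 1, 2 and 8, against 1225, 902 and 719 bp in wild-type replicates 1, 2 and 2b (log2 difference 1.49, SE 0.34). The 3′ region of Dmrta2 had 2534, 2670 and 2998 bp in Azin2-/-, against 794, 1865 and 811 bp in wild-type (log2 difference 1.2, SE 0.28). Znrf4, a ubiquitin ligase gene, had 2462, 2506 and 2389 bp in Azin2-/-, against 961, 763 and 1490 bp in wild-type (log2 difference 1.10, SE 0.27). Chst2, a sulfotransferase gene, had a log2 difference of 0.80 (SE 0.22).

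The other 4 of these had no peak in 1 wild-type library, so that their fitted differences depend on the 200 bp added. At Ebf3, an early B cell factor gene, scaled cover was 1936, 2334 and 1782 bp in Azin2-/- replicates 1, 2 and 8, against 630, 0 and 798 bp in wild-type replicates 1, 2 and 2b. The region of the adhesion genes Icam4 and Icam5 had 2534, 2532 and 1859 bp in Azin2-/-, against 835, 0 and 657 bp in wild-type. Nell1, which encodes a secreted osteogenic protein, had 0 bp in wild-type replicate 1, and so had Sall4, a stem cell transcription factor. In the mean rank order these 8 lay between 4817 and 13943, and the 8 regions with less cover in Azin2-/- between 818 and 4527.

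**Figure D5:**
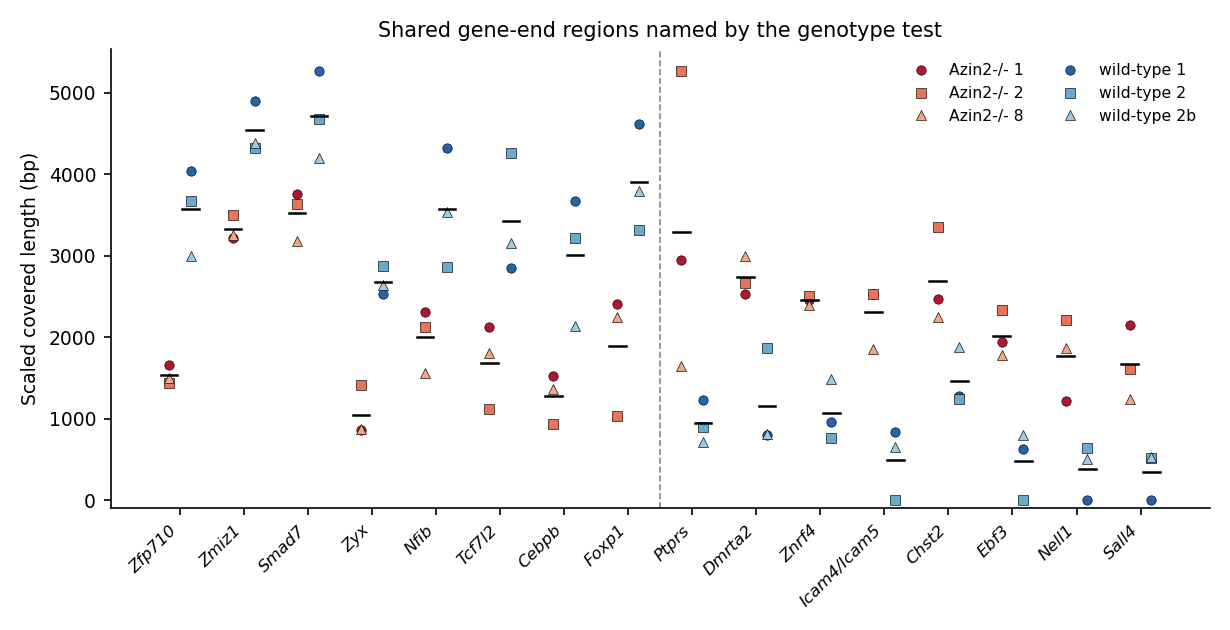
Scaled covered length (y axis, bp) of the 16 regions named by the genotype test (x axis), left of the dashed line the 8 with less cover in Azin2-/- and right of it the 8 with more; each point is a library, Azin2-/- in red on the left and wild-type in blue on the right of each pair, and bars are means of 3. Zfp710, where Azin2-/- libraries lie between 1435 and 1664 bp and wild-type libraries between 2992 and 4046 bp, is the region that passed the limma test. All 16 were picked for having no overlap between genotypes.

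The counts of regions that separate the genotypes were uneven, and their balance turned with the scaling. All Azin2-/- libraries lay above all wild-type libraries at 249 shared gene-end regions (4.47%) and below them at 449 (8.06%), whereas over all regions tested the shares were 4.78% and 2.54%. At an unadjusted limma p below 0.05 there were 76 higher (1.36%) and 208 lower (3.73%), against 3.8% and 1.56% of all regions tested. Without scaling, all Azin2-/- libraries lay above at 256 (4.59%) and below at 161 (2.89%), against 4.79% and 1.01% of all regions tested. With scaling by median ratios the counts were 365 (6.55%) and 297 (5.33%), against 5.69% and 1.79%. In these 3 scalings the share below was larger at shared gene-end regions than over all regions tested. The 2 sets are not alike in this count, because a region with peaks of fewer than 3 libraries cannot separate the genotypes. Many of the regions tested are of that kind, whereas every shared gene-end region has peaks of at least 5 libraries. No conclusion is drawn from the contrast of these shares. The median log2 difference was -0.03 over the shared gene-end regions and 0.15 over all regions tested. Without scaling these medians were 0.09 and 0.30, and with median ratios 0.08 and 0.32, so in these 3 scalings the shared gene-end regions lay below the median of all regions tested. With no minimum on cover the order was reversed, at -0.03 and -0.21, and without Azin2-/- replicate 2 the medians were 0.02 and 0.04. The Zfp710 difference was -0.98 without scaling and -1.0 with median ratios.

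The stronger the region, the more often the difference was negative. Of the 3619 regions of all 6 libraries, sorted into 4 equal classes by mean rank, the share with a positive log2 difference was 25.9% in the strongest class, then 32.8%, 38.6% and 50.2% in the weakest. Without scaling the strongest class had 42.1% and the weakest 61.5%, and without wild-type replicate 1 they had 39.1% and 47.3%. The share with all Azin2-/- libraries below all wild-type libraries was 12.7% in the strongest class and 7.18% in the weakest, and the share above was 1.66% and 5.19%. Per library, the log2 ratio of median cover in the strongest class over the weakest was 0.08, 0.13 and 0.29 in Azin2-/- replicates 1, 2 and 8, and 0.54, 0.13 and 0.29 in wild-type replicates 1, 2 and 2b (exact permutation p = 0.2). Wild-type replicate 1, the thinnest library, stood far above the other 5 libraries, whose values overlapped between genotypes.

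Shares by CpG content differed less once only regions of all 6 libraries were used. In 4 equal classes of the 4186 regions with promoter CpG, the share with a positive difference was 53.6% in the class poorest in CpG and 41.4% in the richest. Wild-type replicate 1 held 80.1% of the poorest class and 87.0% of the richest, and the part of its missing peaks was not tested in that set. Among the 2755 such regions of all 6 libraries, where no peak is missing, the share was 39.8% in the poorest class, then 37.7%, 35.9% and 33.8% in the richest. Without scaling these were 53.0%, 54.9%, 51.0% and 47.8%, so their order then held only in part. The log2 ratio of median cover in the richest class over the poorest, over regions of all 6 libraries, was 0.34, 0.39 and 0.27 in Azin2-/- replicates 1, 2 and 8, and 0.41, 0.47 and 0.33 in wild-type replicates 1, 2 and 2b (exact permutation p = 0.3), and the genotypes overlapped.

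At the Azin2 gene itself the acetylated gene end was present in all 6 libraries. Its region, chr4:128961433-128963858, had 952, 631 and 907 bp of scaled cover in Azin2-/- replicates 1, 2 and 8, against 1589, 1250 and 2064 bp in wild-type replicates 1, 2 and 2b. All Azin2-/- libraries were below all wild-type libraries, with a log2 difference of -0.82 that did not pass the test (SE 0.39, limma adjusted p = 0.60). The deleted part of the gene is not given, so this region checks no genotype label.

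Regions at the other polyamine genes overlapped between the genotypes, apart from Dhps, the deoxyhypusine synthase, whose region had all Azin2-/- libraries above all wild-type libraries without passing. Odc1 had 1054, 1243 and 581 bp in Azin2-/- replicates 1, 2 and 8, against 2202, 1495 and 640 bp in wild-type replicates 1, 2 and 2b (log2 difference -0.43, SE 0.47, limma adjusted p = 0.60). For Azin1 the log2 difference was 0.53 (SE 0.42), for Srm -0.20 (SE 0.32) and for Oaz1 -0.14 (SE 0.50). Over the 12 polyamine regions 6 differences were positive and 6 negative, with a median of 0.01.

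Among adipogenic factors the regions went both ways. Of 17 regions 0 passed the limma test, while 2 were higher and 4 lower at an unadjusted p below 0.05. Over all shared gene-end regions these shares were 1.36% and 3.73%. There were 2 that had all Azin2-/- libraries above all wild-type libraries (Ebf3 and Klf5) and 4 below (Cebpb, Nfib, Ebf1 and Klf9). Over all shared gene-end regions 4.47% lay above and 8.06% below. Ebf1, which is needed for adipocyte differentiation, had 755, 770 and 882 bp in Azin2-/- replicates 1, 2 and 8, against 4419, 1157 and 2311 bp in wild-type replicates 1, 2 and 2b (log2 difference -1.32, SE 0.40, limma adjusted p = 0.60). Wild-type replicate 1 was far above the rest. Klf5 had 1755, 1794 and 1543 bp in Azin2-/-, against 0, 1244 and 1212 bp in wild-type. Cebpa differed little, with 2380, 2151 and 2156 bp in Azin2-/-, against 2754, 2175 and 2832 bp in wild-type (log2 difference -0.19, SE 0.15, limma adjusted p = 0.60).

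No region of the lipid, cytoskeleton or progenitor lists passed the limma test. Their counts are read against 2910 of all 5573 shared gene-end regions (52.2%) that had a negative log2 difference, or 2359 (42.3%) without scaling. That base includes the 1954 regions of 5 libraries, which lean toward Azin2-/- by the way they were chosen. Among regions of all 6 libraries negative differences were more frequent. Only 25.9% of the strongest class and 50.2% of the weakest were positive there. Of 12 regions at adipocyte lipid and secretion genes 2 were lower at an unadjusted p below 0.05, as were 3.73% of all shared gene-end regions. A negative log2 difference was found at 9 of the 12, with a median of -0.35. Fasn had 1764, 1838 and 1741 bp in Azin2-/- replicates 1, 2 and 8, against 2871, 2698 and 2041 bp in wild-type replicates 1, 2 and 2b (log2 difference -0.45, SE 0.18, limma adjusted p = 0.60), and its genotypes did not overlap. Plin1 had 542, 473 and 2190 bp in Azin2-/-, against 693, 799 and 1049 bp in wild-type, and Azin2-/- replicate 8 was the highest of all. The cytoskeleton and focal adhesion list had 18 of 22 regions negative (median -0.41), and the progenitor and fibroblast list 9 of 10 (median -0.62). Without scaling the negative counts were 8 of 12 for the lipid list, 14 of 22 for the cytoskeleton list and 9 of 10 for the progenitor list, with medians of -0.22, -0.29 and -0.49, and each list still lay below the median of 0.09 over all shared gene-end regions. A lean to negative differences was not particular to these lists. Differences with scaling were negative at 8 of 9 proteasome, 7 of 10 chaperone, 8 of 10 glucocorticoid and 8 of 11 clock regions. Their medians were -0.19, -0.36, -0.28 and -0.30. Lists with a positive median included RNA polymerase II with its general factors (5 of 12 negative, median 0.25) and the replication-dependent histones (4 of 13 negative, median 0.58). Hoxc9, a homeobox gene, had 999, 856 and 0 bp in Azin2-/-, against 3197, 1809 and 2591 bp in wild-type, and was missing from Azin2-/- replicate 8.

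The TGF-beta and Wnt list had 33 regions with a median of -0.16, or -0.03 without scaling, of which 1 lay above and 5 below without overlap of the genotypes. Over all shared gene-end regions 4.47% lay above and 8.06% below in this way. The 5 below were at Tgfbr1, Ski, Bmpr1a, Smad7 and Tcf7l2, and an adjoining region at Ski was the 1 above. At Ski, a repressor of Smad signalling, the region chr4:155220920-155222755 had 766, 0 and 991 bp in Azin2-/- replicates 1, 2 and 8, against 1320, 1202 and 1413 bp in wild-type replicates 1, 2 and 2b. The region next to it, chr4:155222804-155224508, had 848, 1428 and 768 bp in Azin2-/-, against 0, 628 and 684 bp in wild-type. The order of the genotypes thus turned between close neighbours, each of which had no peak in 1 library. The 13 regions at replication-dependent histones had a median of 0.58, with 9 positive, and 0 passed at an adjusted or an unadjusted limma p of 0.05. Without wild-type replicate 1 that median was -0.09, with 5 positive. Ribosomal protein regions had a median of -0.03, with 16 positive and 17 negative, and respiratory chain regions -0.02, with 9 positive and 11 negative. Without scaling both medians were positive, at 0.08 and 0.10. Among the 10 regions at markers of other cell types 0 passed the limma test, 1 (Elavl3) was higher at an unadjusted p below 0.05, and in 0 did the genotypes separate without overlap, with log2 differences from -0.05 at Notch3 to 1.5 at Elavl3. At that unadjusted p 1.36% of all shared gene-end regions were higher.

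The cover at Bcl6 and Hnrnpa0, whose ranks separated the genotypes, did not pass the test. Bcl6 had 1245, 1188 and 1489 bp of scaled cover in Azin2-/- replicates 1, 2 and 8, against 3448, 1556 and 3381 bp in wild-type replicates 1, 2 and 2b (log2 difference -0.92, SE 0.27, limma adjusted p = 0.60). Hnrnpa0 had 2383, 2071 and 1422 bp in Azin2-/-, against 3585, 2923 and 2281 bp in wild-type (log2 difference -0.54, SE 0.19, limma adjusted p = 0.60). At Sipa1l1 the cover was 1813, 1161 and 1428 bp in Azin2-/-, against 2263, 1021 and 1174 bp in wild-type (log2 difference 0.04, SE 0.34, limma adjusted p = 0.980). The Bcl6 libraries did not overlap between genotypes, whereas those of Sipa1l1 and Hnrnpa0 did.

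How far such differences could be seen was limited by the spread between libraries. The median SE of a log2 difference over the shared gene-end regions was 0.49. In data simulated for this comparison over 23909 regions, changes set at shared gene-end regions were recovered in 1 of 50 cases at a log2 change of 1, in 22 of 50 at 2 and in 73 of 100 at 3, with 6 false calls. Pearson's r of log2 scaled cover over the 5573 regions ran from 0.139 to 0.418 between Azin2-/- libraries, from 0.0972 to 0.229 between wild-type libraries and from 0.0260 to 0.414 between genotypes. The regions of all pairs are the same and were chosen to be strong in nearly every library, while 1954 of them had peaks of only 5 libraries. The part of either in these values of r was not tested.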

How the data were processed

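H3K27ac ChIP-seq peak lists of 6 libraries were used, 3 Azin2-/- and 3 wild-type, on the build GRCm38, or mm10, that the submitters' processing notes name. The 6 input libraries were not analysed here. No source used here names the aligner, the peak caller or the control. For each peak the authors deposited its summit, a score, a fold ratio and the -log10 of both p-value and q-value. The deposited score equals the whole part of 10 times the deposited -log10 p. The score served to rank peaks within a list, and no peak's score or p was itself compared between libraries. Ranks were averaged over libraries, set side by side for named regions and fitted by genotype in 1 alternative setting. With a pseudocount of 1 in the deposited fold ratio, 100% of sampled peaks gave a whole pileup within 0.001 on the log10 scale, against 2.285% to 6.235% after a small random shift. The depth is unknown.

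The members of the set and the 26 gene lists were chosen with earlier results of these data known. Tied scores were ordered by width, then position, and lists were merged by 1 bp. Gene ends came from the RefSeq table of GRCm38.p6 (21631 protein-coding genes), and strand and starts from its promoter table (17274 genes). Symbols were matched for 812 of 814 entries of the lists.

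Each library's cover was multiplied so that all totals matched, log2 was taken after adding 200 bp, and regions of at least 200 bp mean cover were tested with limma 3.58.1 (trend, R 4.3.3) and Benjamini-Hochberg adjustment at 0.05. The script was tested on simulated data. Single values per library had two-sided exact permutation tests. The rule for named regions took the 12 of smallest mean rank, the 6 of largest mean cover, up to 10 called in each direction or else the 8 of smallest p without overlap of genotypes, the 2 strongest of each list and 20 fixed genes. Ski and Dhps and the other genes named as separated within a list fall outside it and were chosen after their values were seen. Alternatives covered list length, q, pseudocount, minimum, scaling, rank, replicate block and each library left out. Classes by strength and CpG, the set of 6-library regions and the other scalings of lists and classes were added after seeing the data.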

Additional observations from a re-analysis of the deposited data

How the results depend on the processing

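The number of shared gene-end regions was 3619 when all 6 libraries were asked for, 6949 with at least 4, 4798 and 6228 with the 15000 and 60000 strongest peaks, 5039 at a deposited q of 0.05 or less, and 5549 to 6503 with each library left out and all but 1 of the rest asked for. Without a minimum cover, where limma estimated no spread beyond the common trend, 9 shared gene-end regions were called higher and 35 lower in Azin2-/-. Over all 127635 regions tested the counts were 16 and 48. The other settings that kept all libraries called 0 of the shared gene-end regions lower. These were 15000 and 60000 peaks, the deposited q, all deposited peaks, 50 and 1000 bp added and a 500 bp minimum. They also included no scaling, median ratios, within-list rank, the replicate block and wild-type replicates 2 and 2b averaged. Leaving out each library gave 0 to 6 shared gene-end regions higher and 0 to 6 lower, and both counts were 0 unless wild-type replicate 1 was left out. Without wild-type replicate 1 the counts were 6 and 6, against 15 and 7 of all 30279 regions tested. Zfp710 kept its call there (limma adjusted p = 0.00589). The cause was not tested. Of the 16 regions named by the genotype test, Tcf7l2 alone changed direction, with 0.32 for within-list rank.

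With the replicate block the log2 difference at Zfp710 was -1.14 (limma adjusted p = 0.0813). Over the shared regions the deviations from the genotype means were compared between same-numbered libraries. They correlated with r = 0.059 for number 1, 0.076 for number 2 and -0.024 for numbers 2 and 2b. Between libraries of other numbers r ran from -0.045 to 0.041, so the values for numbers 1 and 2 were small but the largest. As deviations from means of only 3 libraries, these values cannot decide whether the numbers pair the libraries. 

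Among values per library, the difference in cover was -0.0145 Mb over the regions of all 6 libraries, and that in the share of peaks -3.77 points at a deposited q of 0.05 or less. With each library left out, the difference in regions held ran from -12.2 to 394, that in cover from -0.55 to 1.12 Mb, that in median cover from -111 to 126 bp, that in the share of cover from -2.14 to -0.928 points and that in the share of peaks from 0.221 to 1.33 points. Differences in regions held, cover and median cover thus changed sign with 1 library. Shallow lists and ties at rank 30000 limit what a missing peak shows.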
